A study of Mus musculus with 16 samples.

Results

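The 10 transporters described here carry amino acids across the plasma membrane, and they were followed in foetal liver erythroblasts with and without Nprl3. Their rows were taken from the count table by the symbols Slc7a11, Slc7a3, Slc7a1, Slc7a5, Slc3a2, Slc38a2, Slc1a5, Slc1a4, Slc6a9 and Slc43a1, which gave 10 of the 55416 genes listed. The symbols were chosen with the comparison of Nprl3-/- (KO) and wild-type (WT) libraries known, so the values of that comparison are given as a description. Where members called in it are counted, the share of all genes called stands beside the count, and nothing is read from it. RNA was sequenced from erythroblasts sorted by Ter119 and CD71 from foetal livers at E13.5, as the early S1 stage and the later S3 stage. The 8 embryos were 4 WT, 2 heterozygous (Het) and 2 KO, each giving 1 library per stage, hence 16 libraries. The WT embryos were 2 females (embryos 1 and 5) and 2 males (embryos 0 and 8), the Het embryos 3 and 4 were male, and the KO embryos were female (embryo 2) and male (embryo 9). The constitutive KO allele lacks the Nprl3 promoter in every cell of the embryo and leaves the α-globin enhancers in the Nprl3 introns in place, and the line was kept on a C57BL/6J background. The source fields of the labels name an embryonic stem cell line, while the titles give sorted stages and genotypes.

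The libraries held 23331156 to 36035368 counted read pairs at S1 and 20666044 to 37609502 at S3. Raw counts of Nprl3 at S1 were 13 and 32 in KO and 881 to 1588 in WT. At S3 it had 1730 and 2069 in KO, against 2953 to 3883 in WT. Per the study, spliced and polyadenylated transcripts that start at the enhancers inside Nprl3 also carry its exons, and a count per gene does not separate them from Nprl3 mRNA. In CPM, which are counts scaled to the same library size, the 9 erythroid markers summed to 98171.5 to 128122.5 in S3 libraries and to 1798 to 6775 in S1 libraries. At S1 the libraries of WT embryos 0 and 8 stood apart from the other 6. Their erythroid markers summed to 6775 and 6514 CPM, against 1798 to 2912 in the others. Their 8 neutrophil markers summed to 190 and 115 CPM, against 1078 to 1566. The main results below are therefore also given without these 2 embryos where that changes a call, a direction or the size.

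Amino acid carriers work as exchangers, sodium-coupled pumps or facilitators, and several SLC7 light chains reach the membrane only when joined to the heavy chain Slc3a2. Nprl3 is a subunit of GATOR-1, the complex that holds back the growth kinase mTORC1 when amino acids are scarce. Erythroblasts need glycine to make haem and large amounts of amino acids to make globin. Several of these transporter genes are textbook targets of ATF4, the transcription factor of the amino acid response.

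The promoter sequence is shown for Slc7a11 and Slc1a4, because these 2 of the 7 members with a RefSeq promoter window held a match to the composite element bound by ATF4 with a C/EBP partner. The windows run from 250 bases before to 50 after the start of the transcript, and they come from RefSeq on build GRCm38.p6. Capitals mark matches to TGATGNAA or to its reverse complement TTNCATCA.
Slc7a11, chr3:50443564-50443863, minus strand: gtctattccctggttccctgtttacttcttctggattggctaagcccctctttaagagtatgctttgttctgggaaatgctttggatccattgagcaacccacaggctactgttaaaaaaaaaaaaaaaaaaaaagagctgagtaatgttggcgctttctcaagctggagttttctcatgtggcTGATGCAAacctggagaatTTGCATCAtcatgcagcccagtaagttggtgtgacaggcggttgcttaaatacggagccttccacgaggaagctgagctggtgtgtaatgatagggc
Slc1a4, chr11:20332664-20332963, minus strand: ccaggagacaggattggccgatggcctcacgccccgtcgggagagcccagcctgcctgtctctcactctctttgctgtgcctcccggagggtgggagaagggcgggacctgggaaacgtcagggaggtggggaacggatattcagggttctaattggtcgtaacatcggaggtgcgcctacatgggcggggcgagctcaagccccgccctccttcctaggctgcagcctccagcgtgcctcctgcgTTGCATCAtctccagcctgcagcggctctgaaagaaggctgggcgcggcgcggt
Slc7a11 held 2 matches in opposite orientation, which start 66 and 47 bases before the transcript start. Slc1a4 held 1, which starts 4 bases before it. Of the 27025 genes with a window, 1219 (4.51%) held this motif. The core of the antioxidant response element, TGACNNNGC, was found in windows of Slc7a1, Slc38a2, Slc6a9 and Slc43a1, and in 13.99% of all genes. The E-box CACGTG was found in Slc43a1 and in 8.09% of all genes. Both strands were searched for each motif, no matches overlapped, and the window of Slc3a2 held none of the 3. Slc7a3, Slc7a5 and Slc1a5 had no entry.

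**Figure D1:**
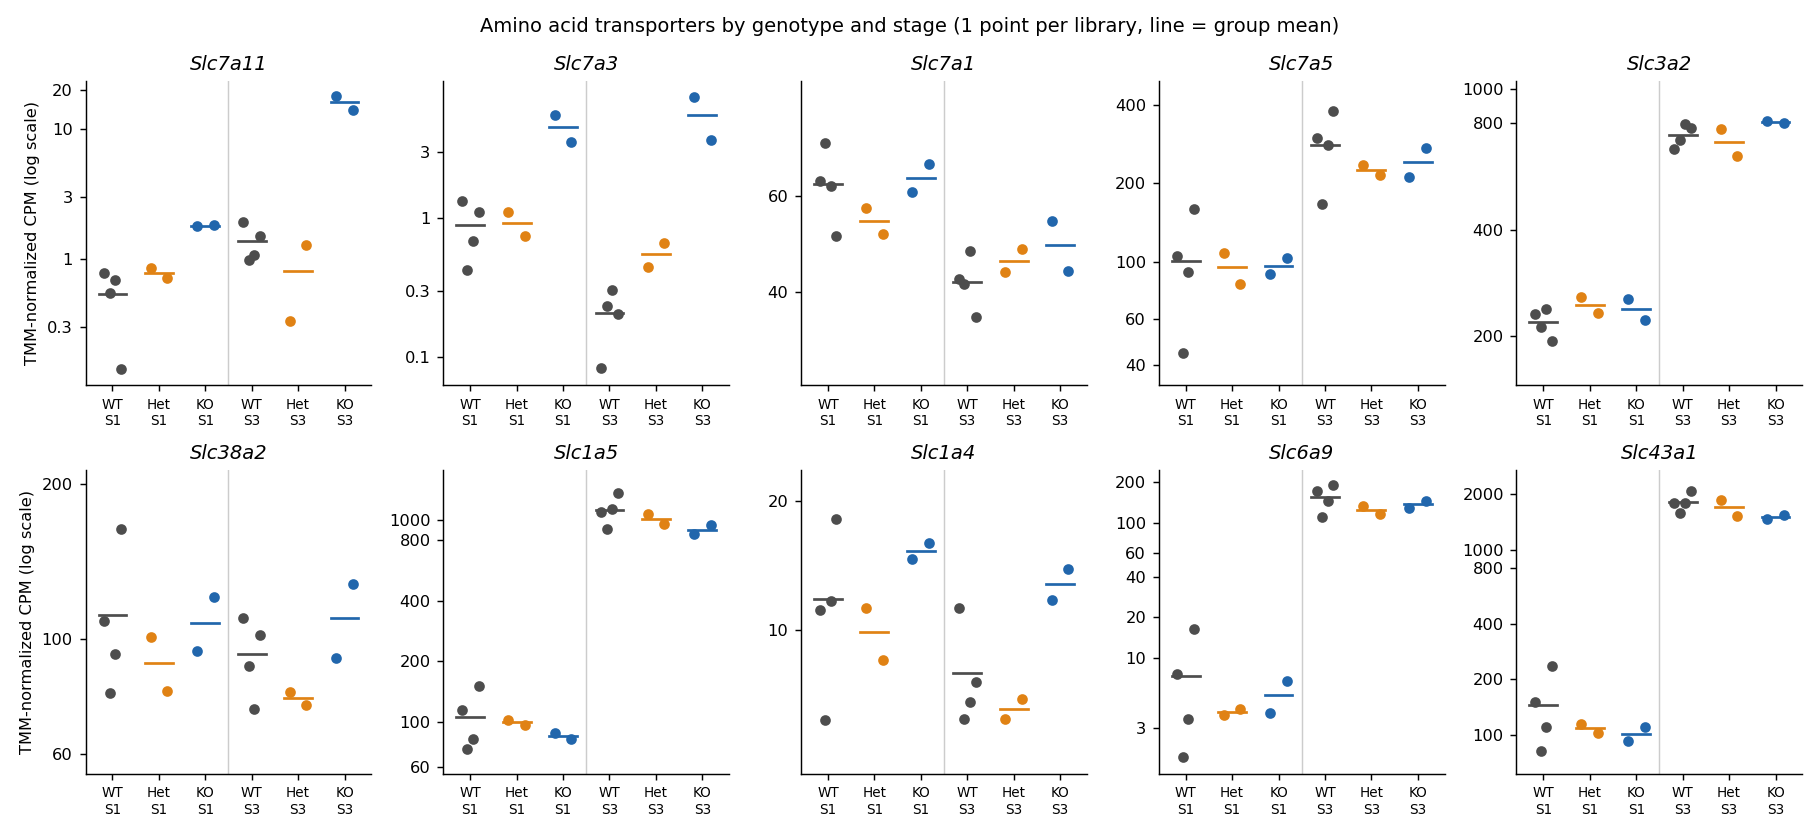
CPM on a log axis for each of the 10 transporters, with 1 point per library, grouped by genotype and stage, and a line at each group mean. Slc7a11 and Slc7a3 are the panels in which both KO libraries lie above every WT library at both stages, while Slc1a5, Slc6a9 and Slc43a1 separate the stages in every genotype.

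In KO erythroblasts 2 of the 10 transporters stood out, Slc7a11 and Slc7a3, and of the other 8 Slc1a4 differed most at S3. Slc7a11 encodes the light chain of the exchanger that imports cystine and exports glutamate. Its gene occupies chromosome 3 between 49846975 and 50398063 (mm39, minus strand). In S3 erythroblasts the CPM of Slc7a11 was 18.1 and 14.1 in KO embryos 2 and 9, and 1.94, 0.981, 1.07 and 1.52 in WT embryos 0, 1, 5 and 8. The KO libraries were far above all WT libraries, with raw counts of 293 and 263 against 21 to 46. The log2 fold change (log2FC) was 3.60 with a standard error (SE) of 0.29, or 12.1-fold, and it stayed between 3.42 and 3.82 over the alternatives planned. It was 4.04 without WT embryos 0 and 8.

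Slc7a3, which encodes the cationic amino acid transporter CAT-3 for arginine and lysine, was the other. It occupies chromosome X between 100122816 and 100129626, also on the minus strand. At S3 its CPM was 7.46 and 3.64 in KO embryos 2 and 9, against 0.0845, 0.234, 0.307 and 0.207 in WT embryos 0, 1, 5 and 8. In the WT libraries this rested on 2 to 8 raw counts, against 121 and 68 in KO. The summed counts gave a ratio of 25.8 of KO over WT, with an exact 95% interval of 15.9 to 44.4 that covers counting error only. On the log2 scale the difference was 4.75 (SE 0.47), and 4.40 without WT embryos 0 and 8. With single embryos left out it ran from 4.16, without KO embryo 2, to 5.17, without KO embryo 9. Slc7a3 passed the limit on mean counts at S3 only through the KO libraries.

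Over all 11804 genes tested at S3, 0.559% were called in either direction and 0.457% were called higher (edgeR's quasi-likelihood test, Benjamini-Hochberg adjusted p under 0.05). Slc7a11 and Slc7a3 were the 2 members called, which the choice of members had used. Without WT embryos 0 and 8, 1 was called, Slc7a11, and 0.0424% of all genes. With sex as a covariate, 3 were called, Slc1a4 being added, and 4.63% of all genes.

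At S1 the same 2 genes were higher in KO by smaller amounts. The CPM of Slc7a11 was 1.79 and 1.84 in KO embryos 2 and 9, against 0.780, 0.555, 0.687 and 0.144 in WT embryos 0, 1, 5 and 8. That of Slc7a3 was 5.57 and 3.53 in KO, against 1.34, 0.429, 0.687 and 1.11 in WT. For both genes the groups did not overlap. In log2FC the differences were 1.77 (SE 0.55) for Slc7a11 and 2.34 (SE 0.46) for Slc7a3. They were 1.56 and 3.03 without WT embryos 0 and 8. No member was called in edgeR at S1, where 0.00712% of 14039 genes were. DESeq2 called 1, Slc7a3, and 0.321% of all genes, and with sex as a covariate the same member and 1.2% of all genes. The female KO embryo 2 had the higher Slc7a3 value of the KO pair at both stages. In WT the 2 males had the higher values at S1 and the 2 females at S3, there on 2 to 8 raw counts.

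Markers of erythroid and of other cells moved with genotype as well. At S3 the 9 erythroid markers summed to 99139.9 and 98171.5 CPM in KO, below the WT range of 109522.4 to 128122.5, and all 9 had a log2FC below 0 with a median of −0.23. At S1 the neutrophil markers, with counts for all 8, summed to 1525 and 1566 CPM in KO and 115 to 1306 CPM in WT. This sum was above all WT libraries, as Slc7a11 and Slc7a3 were, and most of it was Mpo, at 1227 and 1264 CPM in KO and 94.6 to 971 in WT, while Elane and S100a8 in KO lay within the WT range. All 8 neutrophil markers had a log2FC above 0 at S1, with a median of 0.63, and 0 were called. Their WT sums were 1306 and 1078 CPM in embryos 1 and 5 but 190 and 115 CPM in embryos 0 and 8. Against embryos 1 and 5 alone, both KO libraries were higher in Mpo. They were lower in S100a8, at 28.7 and 29.3 CPM against 36.5 and 62.8, and the other markers overlapped. The 10 macrophage markers, all with counts, summed to 67.5 and 68.6 CPM in KO and 27.5 to 55.5 CPM in WT at S1. Most of that sum was Lyz2, at 53.6 and 46.7 CPM in KO and 9.55 to 40.2 in WT, and 7 of the 10 markers had a log2FC below 0, with a median of −0.58. In Het the neutrophil markers, at 1484 and 1492 CPM, were also above all WT libraries, while the 2 transporters overlapped with WT at S1. At S3 the macrophage markers were lower in KO, at 18.1 and 33.3 CPM against 38.1 to 88.9, and the hepatoblast markers were 67.3 and 193 CPM against 159 to 746. Of the 10 macrophage markers 2 were called, where 0.559% of all genes were. The 4 early progenitor markers summed to 2.34 and 8.39 CPM in KO embryos 2 and 9 and 1.76 to 4.52 in WT. The neutrophil markers at S3 were 1.48 and 12.9 CPM in KO embryos 2 and 9 and 1.11 to 4.69 in WT, where Ngp was at 0. The 7 megakaryocyte markers were 59.5 and 113 CPM in KO and 57.6 to 97.7 in WT at S3, with Gp1bb at 0 in both groups. The part of these cells in the results was not tested, and in bulk samples fewer cells of a type and less RNA per cell cannot be told apart.

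The other SLC7 members moved little in KO. Slc7a1, the broadly expressed arginine and lysine carrier CAT-1, lies on chromosome 5 from 148264220 to 148336714. Its CPM at S3 was 53.9 and 43.7 in KO and 35.9 to 47.4 in WT, with a median of 41.7, and the groups overlapped. The log2FC was 0.29 (SE 0.15). Slc7a5, the leucine carrier LAT1, lies on chromosome 8 from 122607889 to 122634433. At S3 it had 212 and 273 CPM in KO and 167 to 381 in WT, with a log2FC of −0.17 (SE 0.30).

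Slc3a2, the heavy chain that Slc7a5 and Slc7a11 share, lies on chromosome 19 from 8684246 to 8700733. At S3 it had 808 and 800 CPM in KO, just above the WT range of 676 to 795. This gave a log2FC of 0.18 (SE 0.13), a small difference. The light chain Slc7a11 thus differed 12.1-fold at S3 while its partner differed 1.13-fold.

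Of the neutral carriers, Slc1a4 had the largest difference in KO at S3. It encodes ASCT1, which exchanges alanine, serine and cysteine, and it lies on chromosome 11 from 20252180 to 20282713. At S3 its CPM was 11.8 and 13.9 in KO embryos 2 and 9, against 11.2, 6.22, 6.82 and 7.58 in WT embryos 0, 1, 5 and 8. The KO libraries lay above all WT libraries, by a narrow margin over WT embryo 0. This gave a log2FC of 0.74 (SE 0.26), and 1.07 without WT embryos 0 and 8. At S1 the groups overlapped, with 14.62 and 15.97 CPM in KO and 6.18 to 18.2 in WT.

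Slc1a5, the glutamine exchanger ASCT2 on chromosome 7, had 854 and 947 CPM in KO at S3 and 907 to 1371 in WT. Slc43a1, the facilitator LAT3 of branched-chain and other neutral amino acids on chromosome 2, had 1468 and 1540 CPM in KO, below the WT range of 1579 to 2090. Their log2FCs were −0.27 (SE 0.19) and −0.22 (SE 0.16), and without WT embryos 0 and 8 they were −0.092 and −0.076. Slc38a2, the sodium-coupled carrier SNAT2 on chromosome 15, had 92.2 and 128 CPM in KO and 73.2 to 110 in WT. Slc6a9, the glycine transporter GlyT1 on chromosome 4, had 129 and 145 CPM in KO and 111 to 191 in WT, and for both genes the groups overlapped. Without WT embryos 0 and 8 the log2FCs of Slc6a9 and Slc7a5 at S3 changed sign, to 0.19 and 0.21. The coordinates of these genes are 16515265 to 16532199 (Slc1a5), 84669194 to 84693938 (Slc43a1), 96585273 to 96597611 (Slc38a2) and 117691703 to 117732395 (Slc6a9). Slc6a9 shares 1986 exonic bases with genes on the other strand, and the counting did not use strand, so its level is uncertain. The other 9 members share none.

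Both KO libraries lay above all WT libraries at S3 in 4 members (Slc7a11, Slc7a3, Slc3a2 and Slc1a4), an order found in 6.57% of all genes tested. They lay below in 1, Slc43a1, against 12.1% of genes. At S1 they lay above in 2, Slc7a11 and Slc7a3, against 6.17% of genes, and below in 0, against 3.75%. The members were chosen with this comparison known, so nothing is read from these counts. Slc7a3 also passed the limit on mean counts at S3 only through the KO libraries. The median log2FC of the 10 members was 0.23 at S3 and 0.0035 at S1, and over all genes tested it was 0.0072 and −0.0071. At S1 the signs of 6 members turned when WT embryos 0 and 8 were left out. Slc6a9 went from −0.48 to 1.00, Slc43a1 from −0.51 to 0.10 and Slc1a5 from −0.31 to 0.15 in log2FC. Slc7a5 went from −0.060 to 0.52, Slc38a2 from −0.048 to 0.34 and Slc7a1 from 0.055 to −0.065. Slc1a4 at S1 went from 0.37 to 0.79, so the directions of these 7 genes or the size of their differences at S1 rest on those 2 WT embryos.

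**Figure D2:**
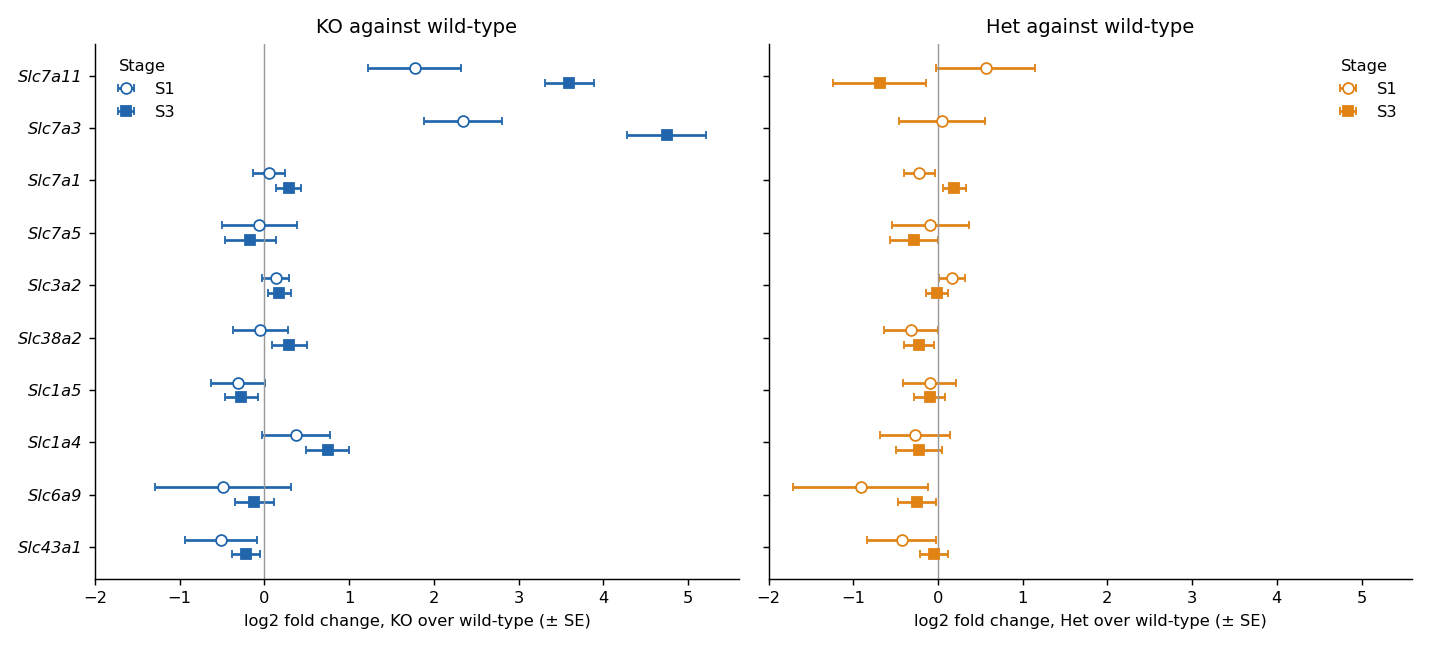
Log2 fold change of each transporter with its standard error, for KO (left) and Het (right) against WT, with open circles for S1 and filled squares for S3. In KO, Slc7a3 and Slc7a11 lie at 4.75 and 3.60 at S3 and at 2.34 and 1.77 at S1, and the other transporters lie between −0.51 and 0.74, with S1 values that move to between −0.065 and 1.00 without WT embryos 0 and 8. In Het all values lie between −0.91 and 0.56, and Slc7a3 was not tested at S3.

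The Het embryos carry 1 copy of the same allele, and they were compared with WT in the same way. At S1 Nprl3 was 12.65 and 12.98 CPM in Het and 22.6 to 32.6 in WT. Without a covariate edgeR called no transporter in Het. At S3 0 of the 9 tested members passed, and 0% of 11746 genes did. At S1 0 of the 10 passed, and 0% of 13818 genes did. At an unadjusted p under 0.05 there were 0 members at either stage, in edgeR and in DESeq2 alike.

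The CPM of Slc7a11 in Het was 0.858 and 0.718 at S1 and 0.333 and 1.28 at S3 in embryos 3 and 4, and it overlapped with WT at both stages. Slc7a3 was 1.11 and 0.747 CPM at S1, within the WT range. At S3 it was 0.445 and 0.665 CPM, above the highest WT library at 0.307 and below the KO libraries. This order was found in 2.39% of the genes tested in Het, but Slc7a3 rested on 8 and 13 raw counts there and failed the limit on mean counts. With sex as a covariate, 2 members were called lower in Het at S3, Slc6a9 and Slc38a2, in edgeR, where 9.25% of all genes were called lower, and in DESeq2, where 8.37% were. Their log2FCs were then −0.51 and −0.44 in edgeR, and without WT embryos 0 and 8 they were 0.060 and 0.018. Both Het embryos are male, and embryos 0 and 8 are the 2 WT males, so with this covariate they are compared with those 2 embryos. At S1 DESeq2 with this covariate called 1 member lower, Slc6a9, and 3.5% of all genes.

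In WT, 6 of the 10 members were called higher at S3 than at S1 and 2 lower, while most genes were called in one direction or the other, 30.6% of 13514 higher and 35% lower (edgeR's quasi-likelihood test). The median log2FC was 1.496 over the members and −0.084 over all genes. These changes are relative to the TMM scaling (edgeR's trimmed mean, which evens out most genes between libraries), whose factors were 1.29 to 1.51 for S1 libraries and 0.691 to 0.813 for S3 libraries. With library totals alone the median of all genes moved by −1.06, and 4 members were called higher and 4 lower, where 13.3% of all genes were called higher and 64.3% lower.

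The largest rise among the 10 members was in Slc6a9, which supplies the glycine used for haem. Its CPM in WT embryos 0, 1, 5 and 8 was 7.56, 1.84, 3.54 and 16.3 at S1 and 172, 111, 145 and 191 at S3. Every S3 library was above every S1 library, although the S1 values themselves were widely spread. This was a log2FC of 4.46 (SE 0.61, edgeR adjusted p = 1.07e-04).

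Slc43a1 rose by 3.71 on the log2 scale (SE 0.33, edgeR adjusted p = 5.50e-06). It went from 150, 82.4, 110 and 237 CPM at S1 to 1801, 1579, 1798 and 2090 at S3 in WT embryos 0, 1, 5 and 8. Slc1a5 rose by 3.49 (SE 0.27, edgeR adjusted p = 2.47e-06), from 114, 73.9, 82.3 and 151 CPM to 1102, 907, 1137 and 1371. Within S1, embryo 8 was the highest and embryo 1 the lowest for all 3 of these genes. Without WT embryos 0 and 8 the 3 rises were larger, at 5.63, 4.19 and 3.77.

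The heavy chain and its leucine-carrying partner rose together. Slc3a2 went from 194 to 239 CPM at S1 to 676 to 795 CPM at S3, a log2FC of 1.82 (SE 0.13, edgeR adjusted p = 1.83e-06). Slc7a5 went from 44.7 to 160 CPM to 167 to 381 CPM, a log2FC of 1.56 (SE 0.37, edgeR adjusted p = 0.00392). With library totals alone Slc7a5 was at 0.51 and was not called.

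Slc7a1, the more abundant of the cationic carriers, fell. It went from 63.8, 75.1, 62.6 and 50.7 CPM at S1 to 42.1, 41.4, 47.4 and 35.9 at S3 in WT embryos 0, 1, 5 and 8, a log2FC of −0.53 (SE 0.15, edgeR adjusted p = 0.00979). All S3 values were below all S1 values. Without WT embryo 0 the log2FC of Slc7a1 was again −0.53 but was not called (edgeR adjusted p = 0.0608). Slc7a3 had a log2FC of −2.02 (SE 0.51), with 17 to 54 raw counts at S1 and 2 to 8 at S3. It passed the limit on mean counts only through S1, where it is high, so nothing is read from its call as 1 of the 2 lower members. Slc7a11 had a log2FC of 1.43 (SE 0.49, edgeR adjusted p = 0.0252). Neither of these sparse genes was called without WT embryos 0 and 8, at −0.97 and 0.78, which left 5 members higher and 1 lower, where 28.9% of all genes were higher and 33.5% lower. Slc38a2 (−0.19, SE 0.24) and Slc1a4 (−0.50, SE 0.33) did not pass the test in WT, with adjusted p of 0.512 and 0.198 in edgeR. With library totals alone both were called lower, at −1.23 and −1.54, while Slc7a11 was not called.

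**Figure D3:**
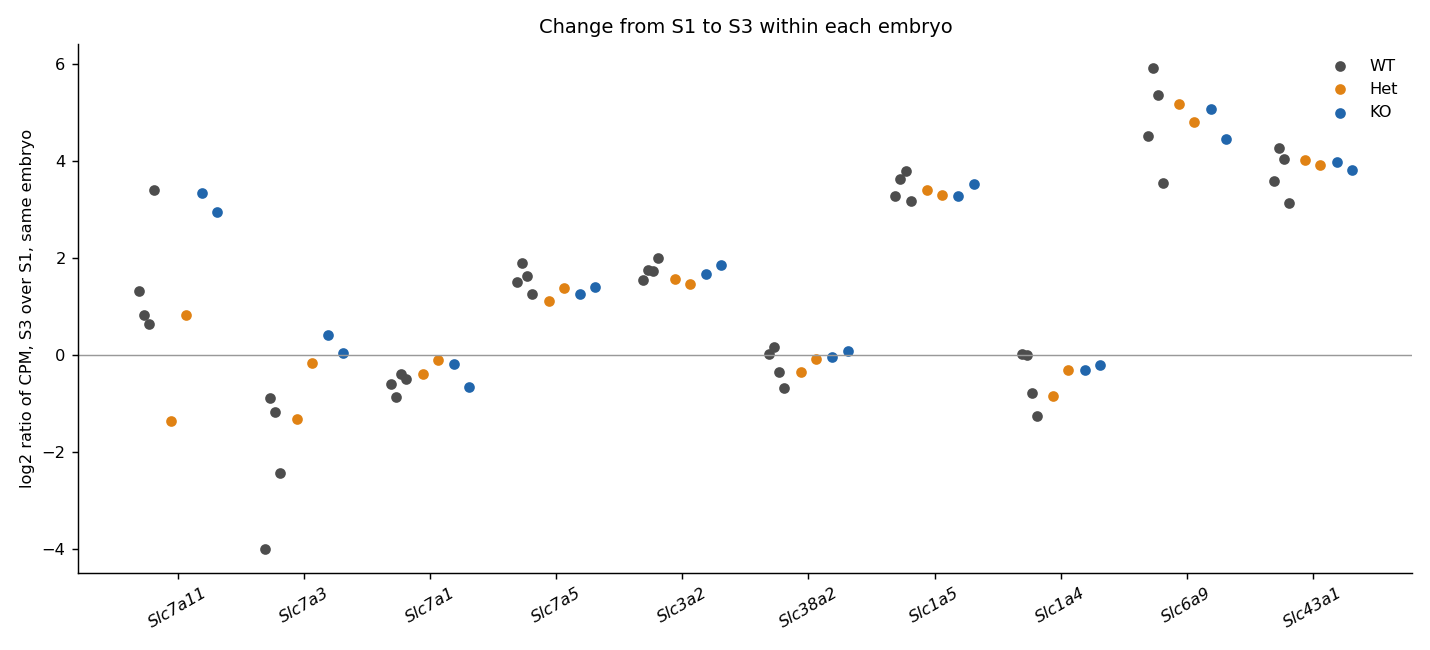
The log2 ratio of CPM at S3 over S1 within each embryo, for the 10 transporters, coloured by genotype. Slc7a3 is below 0 in all WT embryos and at 0.044 and 0.42 in the KO embryos, while Slc1a5, Slc43a1 and Slc6a9 rise in every embryo by similar amounts in the 3 genotypes.

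Because both stages came from the same livers, the change could also be read within each embryo. Slc1a5 was 9.06 to 13.8 times higher at S3 in the WT embryos, 9.68 and 11.5 times in KO and 9.87 and 10.6 times in Het. Slc3a2 was 2.92 to 3.98 times higher in WT, 3.16 and 3.61 times in KO and 2.76 and 2.98 times in Het. For these genes the genotypes overlapped or lay side by side.

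Slc7a3 fell in each WT embryo, to 0.0630 to 0.545 of its S1 level, and in both Het embryos, to 0.401 and 0.891. In KO embryos it was 1.03 and 1.34 times its S1 level. Slc7a11 rose 7.65- and 10.1-fold in KO embryos and 1.56- to 10.5-fold in WT, where the highest value was that of embryo 8 with 7 raw counts at S1. The fit of both stages put the difference between the KO effects at S3 and S1 at 1.81 (SE 0.66) for Slc7a11 and 2.41 (SE 0.75) for Slc7a3 on the log2 scale. The interaction was called in 0 members in edgeR and in 0.00742% of 13485 genes. Without WT embryos 0 and 8 the 2 differences were 2.45 and 1.34.

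To compare transporters with each other, levels were divided by the exonic length of each gene (CPM per kilobase of exon, RPKM). At S1 the heavy chain Slc3a2 led in WT with 62.1 ± 5.72 RPKM (SD, n = 4). Slc7a5 (27.0 ± 12.8), Slc43a1 (25.4 ± 11.8), Slc1a5 (25.3 ± 8.43) and Slc38a2 (12.6 ± 4.21) followed, and neighbours among these 4 overlapped. Slc7a1 (5.47 ± 0.867), Slc1a4 (3.01 ± 1.25) and Slc6a9 (1.42 ± 1.26) came next and overlapped likewise. Slc7a3 (0.236 ± 0.109) and Slc7a11 (0.0389 ± 0.0202) came last, each apart from its neighbours.

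At S3 in WT the order was led by Slc43a1 (318 ± 36.6 RPKM), Slc1a5 (271 ± 45.6) and Slc3a2 (210 ± 15.4), of which neighbours overlapped. Slc7a5 (76.0 ± 23.7), Slc6a9 (30.1 ± 6.75), Slc38a2 (10.6 ± 1.82), Slc7a1 (3.62 ± 0.409) and Slc1a4 (2.03 ± 0.574) followed without overlap. Slc7a11 (0.0990 ± 0.0318) and Slc7a3 (0.0549 ± 0.0244) were again the least abundant, and they overlapped. In KO at S3, Slc7a3 reached 1.47 ± 0.714 RPKM (SD, n = 2) and Slc7a11 1.15 ± 0.203. Both were still the 2 lowest, below Slc1a4 at 3.26 ± 0.374.

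**Figure D4:**
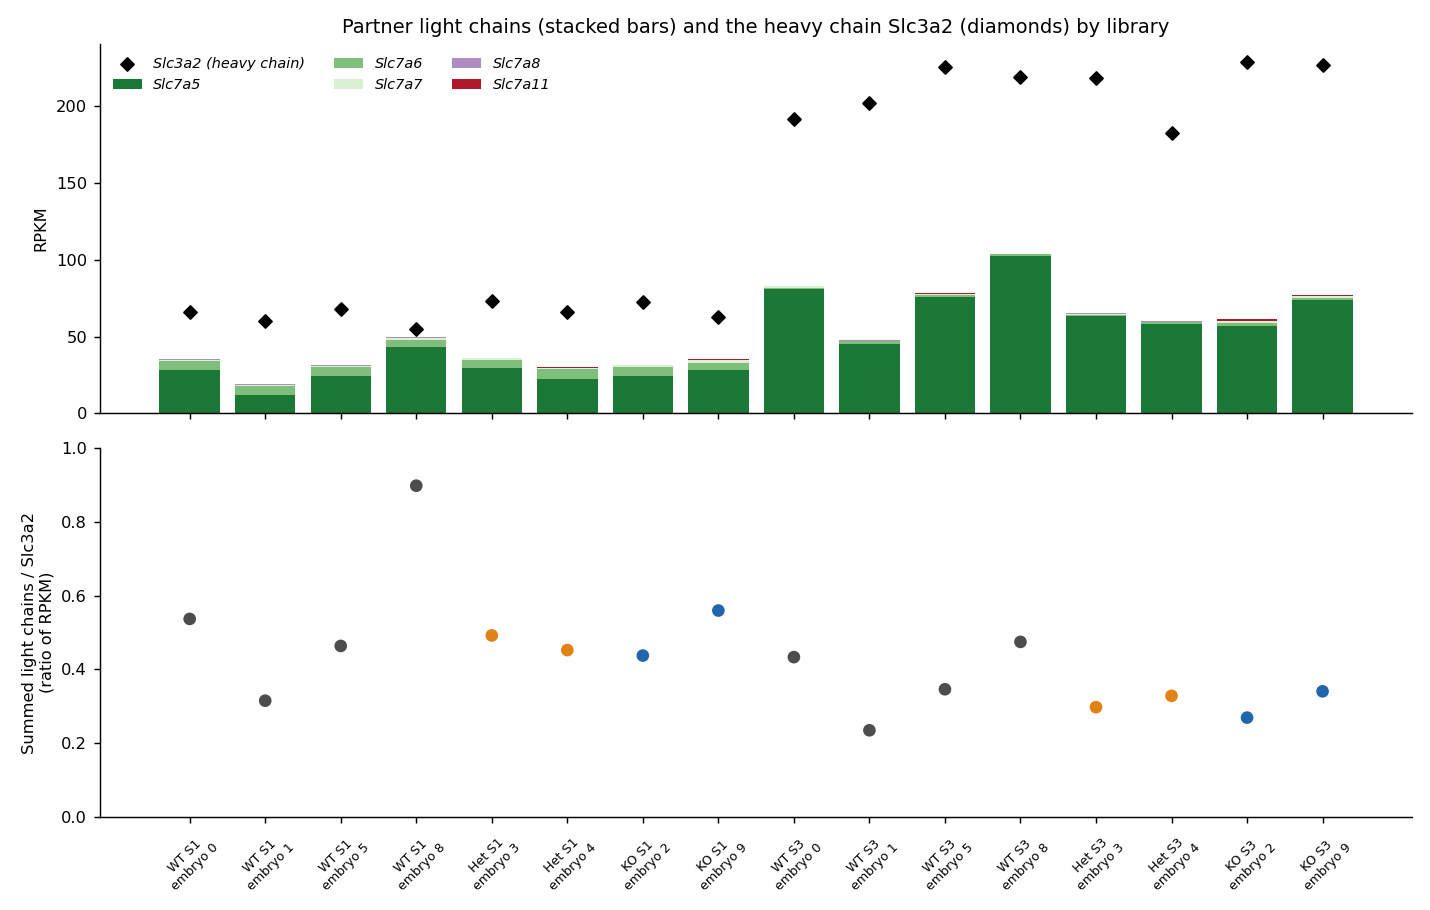
Top, RPKM of the light chains that pair with Slc3a2 as stacked bars and of Slc3a2 as diamonds, for each library. Bottom, the ratio of the summed light chains to Slc3a2. The ratio is below 1 in all 16 libraries and lower at S3 than at S1 in all 8 embryos.

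The light chains that join Slc3a2 were summed (Slc7a5, Slc7a6, Slc7a7, Slc7a8, Slc7a10 and Slc7a11) and set against it. The ratio of the summed light chains to Slc3a2 in RPKM was 0.553 ± 0.247 at S1 and 0.372 ± 0.106 at S3 in WT (SD, n = 4). In KO it was 0.499 ± 0.0862 and 0.305 ± 0.0503, and in Het 0.472 ± 0.0281 and 0.313 ± 0.0216 (SD, n = 2 each). At each stage the KO values lay within the WT range. At S1 this rested on WT embryos 0 and 8 (0.537 and 0.898), as KO embryo 9 (0.560) was above WT embryos 1 and 5 (0.315 and 0.464). The ratio was lower at S3 than at S1 in all 8 embryos. When only Slc7a5 and Slc7a11 were summed, WT embryo 1 went the other way, from 0.201 to 0.223.

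Slc7a5 made up 77.4% of the summed light chains at S1 in WT and 96.9% at S3. Slc7a10 was at 0 in every library, and Slc7a6 fell from 5.46 to 1.28 RPKM in WT. Slc7a11 made up 0.0988% to 0.168% of the light chains in WT at S3, and 2.10% and 1.31% in KO embryos 2 and 9. Its share in KO at S3 was thus above the largest WT share, while Slc7a5 remained the main partner in every library.

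A wider list of 46 other amino acid transporters, grouped by SLC family, was read beside these 10. In KO at S3, 16 of the 46 were expressed above the limit and 0 were called in edgeR. At an unadjusted p under 0.05 there were 3 of the 16, where 8.52% of all genes tested had one. DESeq2 called 0 as well, and DESeq2 with sex as a covariate called 2, Slc6a6 and Slc16a10, where 6.41% of all genes were called. The 3 with the smallest p were Slc6a6, a taurine carrier (log2FC 0.87, SE 0.27), Slc7a7, a light chain for cationic amino acids (1.32, SE 0.45), and Slc6a20a, a proline carrier (−0.57, SE 0.24). Their adjusted p in edgeR were 0.318, 0.381 and 0.581. Both KO libraries lay outside the WT range for all 3 genes, which were picked by their p in this comparison, so nothing is read from that. Of the 16 tested, 2 lay above all WT libraries and 3 below, against 6.57% and 12.1% of all genes. At S1, 22 of the 46 were tested, 0 were called in edgeR or DESeq2, and 1 had an unadjusted p under 0.05, where 2.53% of all genes had one.

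From S1 to S3 in WT, 21 of the 46 were tested, of which 7 rose and 9 fell in edgeR, where 30.6% and 35% of all genes did. Of these calls, 1 rise (Slc6a20a) and 3 falls (Slc7a4, Slc1a3 and Slc36a4) were in genes that passed the limit on mean counts only through the stage where they are high, and nothing is read from them, which leaves 6 rises and 6 falls. With library totals alone 4 were called higher and 13 lower, where 13.3% and 64.3% of all genes were. Their median log2FC was −0.52, against 1.496 over the 10 members. With Slc6a20a left out, the rises with the smallest p were in Slc38a5, Slc16a10 and Slc38a9. Slc38a5, a sodium-coupled glutamine and glycine carrier, rose by 2.35 (SE 0.16). Slc16a10, a facilitator of aromatic amino acids, rose by 3.69 (SE 0.27), and Slc38a9 by 1.94 (SE 0.17). The falls with the smallest p were in Slc38a1, the carrier SNAT1 (−2.67, SE 0.19), Slc38a7, a lysosomal glutamine carrier (−3.23, SE 0.29), and Slc6a6 (−2.25, SE 0.23). The edgeR adjusted p of these rises and falls ran from 1.02e-06 to 1.23e-05. Of the 4 genes grouped as lysosomal and vesicular carriers, 3 (Ctns, Slc66a1 and Mfsd12) were called higher under TMM scaling and the other was not tested. They are too few to set against the 30.6% of all genes, and the group leaves out the lysosomal Slc38a7, which fell. With library totals alone Ctns was called lower, at −0.57, and Slc66a1 and Mfsd12 were not called, at −0.35 and 0.13. Without WT embryos 0 and 8, 14 of the other transporters were called, Ctns (edgeR adjusted p = 0.0975) and Slc36a1 (0.111) no longer being so. Of the SLC38 carriers, 2 rose and 3 fell of 7 tested, too few to set against the shares over all genes. With the embryo as a block, Slc36a1 was no longer called (edgeR adjusted p = 0.0512) and Slc38a4 was (0.0136), both named here after their values were seen.

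**Figure D5:**
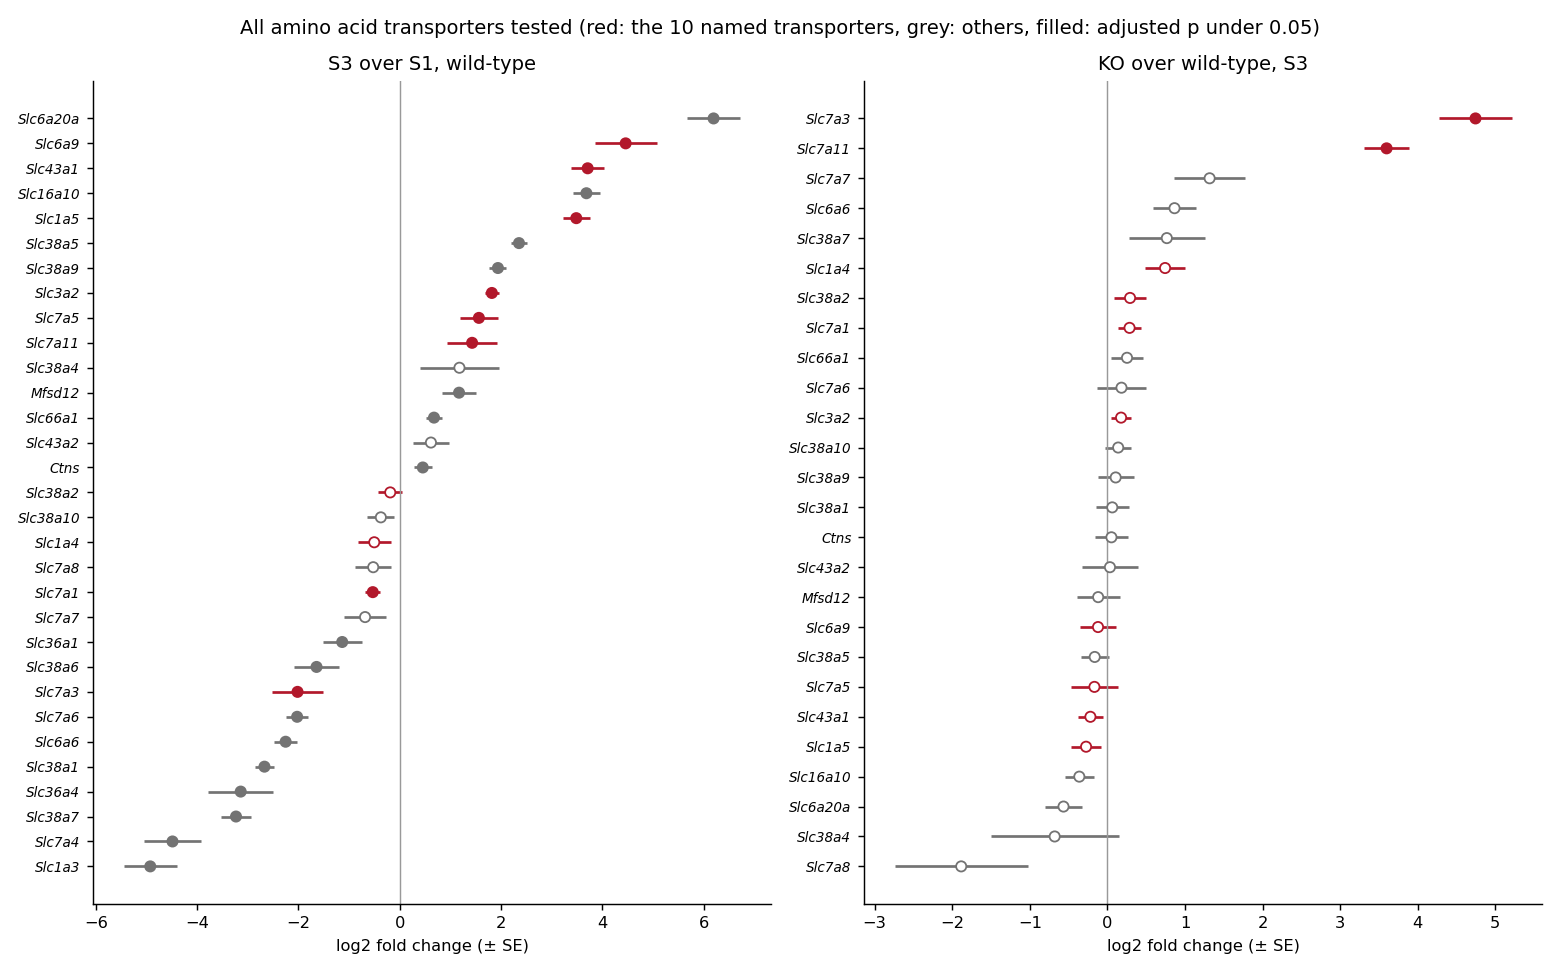
Log2 fold change, with its standard error, of every amino acid transporter tested, for S3 over S1 in WT (left) and KO over WT at S3 (right), with the 10 members in red, the others in grey and filled points for an adjusted p under 0.05. From S1 to S3 the points run from −4.93 (Slc1a3) to 6.20 (Slc6a20a), and both genes passed the limit on mean counts through 1 stage only. Genes called that passed it in both stages spread from −3.23 (Slc38a7) to 4.46 (Slc6a9). In KO only Slc7a3 and Slc7a11 are filled.

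The genes whose pattern over the 16 libraries was most like that of Slc7a3 and Slc7a11 were looked up among 13401 genes. Each library was expressed as its log2 level minus the WT mean of its stage, and genes were ranked by Pearson's r. The 4 genes most like Slc7a3 were Parp12, Isg15, Ndrg2 and Tor1aip2, with r from 0.9355 to 0.9407. The 5 most like Slc7a11 were Ndrg2, Pfkp, Tor1aip2, Cth and Rsad2, with r from 0.929 to 0.954. Ndrg2 and Tor1aip2 were on both lists. Cth makes cysteine from cystathionine, Pfkp is a phosphofructokinase, and Isg15, Parp12 and Rsad2 are interferon-stimulated genes. The KO log2FCs of these 7 genes ran from 0.90 to 4.70 at S3 and from 0.37 to 3.91 at S1. Slc7a11 and Slc7a3 had an r of 0.849 with each other, and Slc1a4 came next among the members, with 0.636 to Slc7a3 and 0.596 to Slc7a11. The points share the same 4 KO libraries and the same WT means, so these values describe likeness in these libraries alone.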

How the data were processed

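RNA was amplified from sorted erythroblasts, made into polyA-selected libraries and sequenced as read pairs. The authors deposited one table of raw counts of read pairs per gene, unstranded and without multi-mapping reads per the file headers, made with STAR 2.7.9 and featureCounts 1.6.4 on mm39. Of its columns, 16 matched the labels, and 4 library columns that matched none were not used. Symbols were found for 54749 of 55416 genes. S1 and S3 libraries of the same number come from the same embryo.

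CPM and RPKM were computed from these counts with TMM factors over library totals. Genes with a mean normalised count above 10 in the libraries compared were tested in edgeR 4.0.16 (R 4.3.3, quasi-likelihood, Benjamini-Hochberg adjustment over all genes tested, threshold 0.05). The fit for each stage held the groups compared, and DESeq2 1.42.0 was an alternative. The other alternatives changed the scaling, the filter, sex as a covariate, the embryo as a block and the libraries left out. Likeness used log2(CPM + 0.5). The main edgeR fit was tried on simulated counts for S3 against S1 in WT, Het at S3 and KO at both stages. Het at S1, the interaction and the alternative fits were not tried in this way. Depth limits the sparse genes Slc7a3 and Slc7a11, and intervals on counts cover counting error only. With 2 Het and 2 KO embryos, each p-value rests on the spread between few embryos.

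The members and gene lists were chosen with earlier results of these data known. The genes named are all members, the 3 other transporters with the smallest p in KO at S3, the 3 in each direction between stages, and the 5 genes most like each of Slc7a3 and Slc7a11, of which 1 is not reported here. Over 13402 genes, deviations from the group mean in S1 and S3 libraries of the same embryo correlated at 0.05, 0.28, 0.40 and 0.41 in WT, 0.07 in Het and 0.53 in KO (Pearson's r). Pairing was taken from the shared animal.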

Additional observations from a re-analysis of the deposited data

How the results depend on the processing

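Of 823 fold changes of the members recomputed, 756 kept their direction and their side of the threshold. The omission of WT embryos 0 and 8 together and the use of library totals alone were chosen after seeing the data, and the cause of the changes was not tested. From S1 to S3 in WT, the count of members called lower was 1 without WT embryos 0 and 8, 4 with library totals alone, and 1 to 2 with single embryos left out, where Slc7a11 and Slc7a1 were no longer called without WT embryo 0. With the embryo as a replicate block, 6 members rose and 2 fell as before, 16 other transporters were called, and the interaction was called in 0 members, so that Slc36a1 and Slc38a4 were the transporters whose call changed with the block. In KO, 1 member was called at S3 without WT embryos 0 and 8, with 0.0424% of all genes. At S1 DESeq2 called 1, with 0.321% of all genes, and with sex 1, with 1.2%. DESeq2 with sex called 2 other transporters at S3, with 6.41% of all genes. In Het, sex as a covariate gave 2 members at S3 in edgeR and in DESeq2, and 1 at S1 in DESeq2, Slc6a9, with 3.5% of all genes called lower.

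Small differences changed sign. Without WT embryos 0 and 8, Het log2 fold changes at S3 were 0.091 (Slc7a5), 0.018 (Slc38a2), 0.082 (Slc1a5), 0.10 (Slc1a4), 0.060 (Slc6a9) and 0.10 (Slc43a1). At S1 they were 0.50 (Slc7a5), 0.072 (Slc38a2), 0.36 (Slc1a5), 0.15 (Slc1a4), 0.57 (Slc6a9) and 0.19 (Slc43a1). Slc3a2 in Het at S3 was 0.0014 with no filter on low counts. Slc7a3 in Het at S1 was −0.42 with sex as a covariate, −0.44 with it in DESeq2 and −0.032 with library totals alone. With single embryos left out, several ranges crossed 0. That of Slc38a2 from S1 to S3 was −0.29 to 0.046. In KO they were −0.38 to 0.015 (Slc7a5) at S3, and −0.052 to 0.14 (Slc7a1), −0.31 to 0.29 (Slc7a5), −0.25 to 0.23 (Slc38a2) and −0.95 to 0.32 (Slc6a9) at S1. In Het at S3 they were −0.12 to 0.095 (Slc3a2), −0.20 to 0.0385 (Slc1a5) and −0.17 to 0.071 (Slc43a1). In Het at S1 they were −0.27 to 0.31 (Slc7a3), −0.34 to 0.24 (Slc7a5), −0.25 to 0.13 (Slc1a5) and −0.50 to 0.023 (Slc1a4). The ratio of light to heavy chains at S1 with only Slc7a5 and Slc7a11 was 0.369 in Het and 0.391 in KO.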
